A study of Mus musculus with 24 samples.

Results

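The Toll-like receptors Tlr1, Tlr2, Tlr3, Tlr4, Tlr6, Tlr7, Tlr9, Tlr12 and Tlr13, together with the receptor chaperone Unc93b1, were followed in mouse microglia with and without 3110043O21Rik, the mouse counterpart of C9orf72. These 10 genes were taken by symbol from the 20636 genes that the TPM table of each age lists, and all 10 were found at both ages. They fall into 5 endosomal receptors (Tlr3, Tlr7, Tlr9, Tlr12 and Tlr13), 4 surface receptors (Tlr1, Tlr2, Tlr4 and Tlr6) and Unc93b1. The set was chosen from a result already known in these data, the lower Tlr12 TPM of homozygous than wild-type animals at 3 months. Member values of that comparison are therefore given as a description, without p-values, and the number of members its fit called is printed only beside the share of all genes. The study profiled CD11b-positive brain cells, collected on magnetic beads, from 6 groups of 4 C57BL/6J mice. Homozygous knockouts (HOM), heterozygous knockouts (HET) and wild types (WT) were taken at 17 months and at 3 months, which makes 24 animals in all. No treatment is labelled, and the labels do not say how the knockout allele was made. Animals are named by genotype and by the number that heads their column.

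Toll-like receptors recognise microbial molecules and start inflammatory signalling, for the most part through the adaptor Myd88. Surface receptors read lipids: Tlr2 pairs with Tlr1 or Tlr6 to sense lipopeptides, and Tlr4 senses lipopolysaccharide. Endosomal receptors read what is released when a microbe is broken down, namely double-stranded RNA (Tlr3), single-stranded RNA (Tlr7), unmethylated CpG DNA (Tlr9), bacterial ribosomal RNA (Tlr13) and the protozoan protein profilin (Tlr12). They leave the endoplasmic reticulum with Unc93b1, a membrane protein that escorts them to endosomes, where proteases trim several of them into their active form. The C9orf72 protein acts in a complex with Wdr41 and Smcr8 at lysosomes, and in mice its loss has been tied to stronger endosomal receptor signalling in macrophages.

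At 17 months the libraries held 40700000 to 46400000 alignments in HOM, 30600000 to 37100000 alignments in HET and 16700000 to 35700000 alignments in WT animals, as given in the RPKM tables. At 3 months they held 30600000 to 33800000 alignments in HOM, 26300000 to 28900000 alignments in HET and 21800000 to 28400000 alignments in WT animals. The targeted gene stood at 0.243% of the WT mean in HOM and 48.5% in HET animals at 17 months, and at 0.610% in HOM and 42.6% in HET animals at 3 months (exact permutation test, two-sided, p = 0.0286 each, the smallest that the 70 assignments of 4 against 4 animals allow). By Y-linked transcripts the 17-month groups held 3 HOM, 0 HET and 1 WT males, and the 3-month groups 2 HOM, 4 HET and 1 WT males. Sex is therefore unevenly spread over the genotypes at both ages, and values with a sex term are given where they turn a direction. All 10 microglia markers were detected in both tables, and their summed TPM ran from 16962 to 22495 in HOM and 19921 to 23671 in WT animals at 17 months. Markers of other cells were also present. At 17 months the summed TPM of 8 neutrophil markers ran from 2209 to 5939 in HOM, 543 to 11108 in HET and 404 to 2478 in WT animals, and that of 5 oligodendrocyte markers from 758 to 1895 in HOM, 394 to 1158 in HET and 2192 to 6195 in WT animals. Monocyte markers (6 genes) reached 151 to 785 TPM in HOM and 44.5 to 131 TPM in WT animals, with no overlap. Klk1 of the 8 B and plasmacytoid dendritic cell markers and Mag of the oligodendrocyte markers were below 0.1 TPM in all 24 animals. At 3 months neutrophil markers ran from 1743 to 4574 TPM in HOM, 1515 to 4884 TPM in HET and 735 to 2347 TPM in WT animals. In such bulk samples fewer cells of a type and less RNA per cell cannot be told apart.

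The members lie on 7 chromosomes of GRCm38 (mm10) in GENCODE M21. Tlr12 is a gene of 1 exon on the minus strand of chromosome 4, from 128615443 to 128618619, and lies 93.4 Mb from the targeted gene on the same chromosome. Tlr4, on the plus strand of chromosome 4 from 66827584 to 66930284, lies 31.6 Mb from it. Tlr7 (X, 167304929 to 167330558, minus strand) and Tlr13 (X, 106143204 to 106160493, plus strand) are X-linked. Tlr3 is on chromosome 8 (45395665 to 45411080, minus strand, overlapped by the antisense gene Gm45542), Tlr9 on chromosome 9 (106222598 to 106226883, plus strand), Tlr2 on chromosome 3 (83836272 to 83841767, minus strand) and Unc93b1 on chromosome 19 (3935186 to 3949340, plus strand). Tlr1 (64924679 to 64933563) and Tlr6 (64952031 to 64960097) are neighbours on the minus strand of chromosome 5 and share sequence. Of all 75-base windows in their longest coding transcripts, 11.5% of those of Tlr1 and 9.44% of those of Tlr6 occur in the other gene, so reads there can be split between them and their levels are less certain. No such window was shared for the other 8 members.

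Promoters are shown for Tlr12, on which the choice of the set rests, for Tlr3, whose 17-month HOM and WT values lie apart, and for Tlr9, whose values do not. Each covers 250 bases before to 50 bases after the start site in RefSeq (GRCm38.p6), where 7 of the 10 members matched by symbol. The Tlr12 window is chr4:128618570-128618869 (minus strand), the Tlr3 window chr8:45410331-45410630 (minus strand) and the Tlr9 window chr9:106222348-106222647 (plus strand). Capitals mark matches to GAGGAA, the core bound by the myeloid factor PU.1, on either strand.
Tlr12: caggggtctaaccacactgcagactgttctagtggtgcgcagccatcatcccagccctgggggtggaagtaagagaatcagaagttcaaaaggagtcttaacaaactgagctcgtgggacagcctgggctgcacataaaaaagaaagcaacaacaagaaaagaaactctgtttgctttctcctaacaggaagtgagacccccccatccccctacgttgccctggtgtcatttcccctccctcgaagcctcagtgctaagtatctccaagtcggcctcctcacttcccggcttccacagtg
Tlr3: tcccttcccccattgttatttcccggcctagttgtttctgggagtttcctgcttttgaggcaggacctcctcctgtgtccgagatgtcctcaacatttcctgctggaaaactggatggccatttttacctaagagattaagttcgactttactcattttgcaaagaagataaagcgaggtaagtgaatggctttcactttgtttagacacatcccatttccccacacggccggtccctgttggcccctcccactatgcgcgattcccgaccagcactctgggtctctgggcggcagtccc
Tlr9: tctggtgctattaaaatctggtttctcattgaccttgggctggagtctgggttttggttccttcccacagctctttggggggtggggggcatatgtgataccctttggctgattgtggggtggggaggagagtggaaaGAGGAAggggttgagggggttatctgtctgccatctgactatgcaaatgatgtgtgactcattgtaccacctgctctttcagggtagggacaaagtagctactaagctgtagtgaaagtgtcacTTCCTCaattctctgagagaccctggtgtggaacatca
Tlr9 has 2 matches, at 112 bases before the start site and 13 bases after it. GAGGAA occurs in 28.3% of the 32851 promoter windows of this length. The other letters searched on both strands were CACGTG (7.15% of windows), GGGNNTTCC (5.82%) and GAAANNGAA (8.56%). None of the 4 motifs occurs in the Tlr12 or Tlr3 window, and Tlr9 has none of the other 3. Of the members not shown, GAGGAA occurs in Tlr13 (83 bases before the start site) and in 1 window of Tlr1 (23 bases before). CACGTG occurs in another window of Tlr1, GGGNNTTCC in Tlr2 and GAAANNGAA in Tlr6. A match is a description of the letters only, and no link of motifs to the genotype differences was tested.

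Unc93b1 was by far the most abundant of the 10 transcripts in every animal. Levels between genes are compared here in TPM, which is scaled by transcript length. In WT animals of 17 months the order was Unc93b1 (1139.7 ± 141 TPM, SD, n = 4), Tlr2 (135 ± 18.01), Tlr7 (94.5 ± 12.7), Tlr13 (84.3 ± 10.3), Tlr9 (45.4 ± 11.7), Tlr12 (41.1 ± 7.73), Tlr1 (38.4 ± 3.74), Tlr3 (31.2 ± 2.98), Tlr6 (24.9 ± 3.81) and Tlr4 (16.4 ± 1.20). Neighbours overlapped between Tlr7 and Tlr13, and from Tlr9 down to Tlr6. Tlr4 lay below all of them in every WT animal of that age. In WT animals of 3 months the order was Unc93b1 (1610.0 ± 64.1 TPM), Tlr7 (167 ± 15.4), Tlr13 (127 ± 7.88), Tlr2 (122 ± 7.70), Tlr9 (88.7 ± 7.65), Tlr1 (52.2 ± 4.45), Tlr3 (45.7 ± 6.77), Tlr12 (40.8 ± 1.59), Tlr6 (31.8 ± 2.13) and Tlr4 (25.2 ± 4.28). There the neighbours Tlr13 and Tlr2, those from Tlr1 to Tlr12, and Tlr6 and Tlr4 overlapped. Tlr2 was thus above every endosomal receptor at 17 months and below Tlr7 at 3 months. The ages stand in separate tables, so levels are set side by side and were not tested across ages. Of the receptors outside the set, Tlr5 lay between 6.99 and 25 TPM, Tlr8 between 0 and 4.88 TPM and Tlr11 between 0 and 1 TPM over the 24 animals. With the table's levels and each library's alignments, the least covered value, Tlr4 in WT-7782, rests on an estimated 678 alignments, which gives a counting error of 3.84%.

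**Figure D1:**
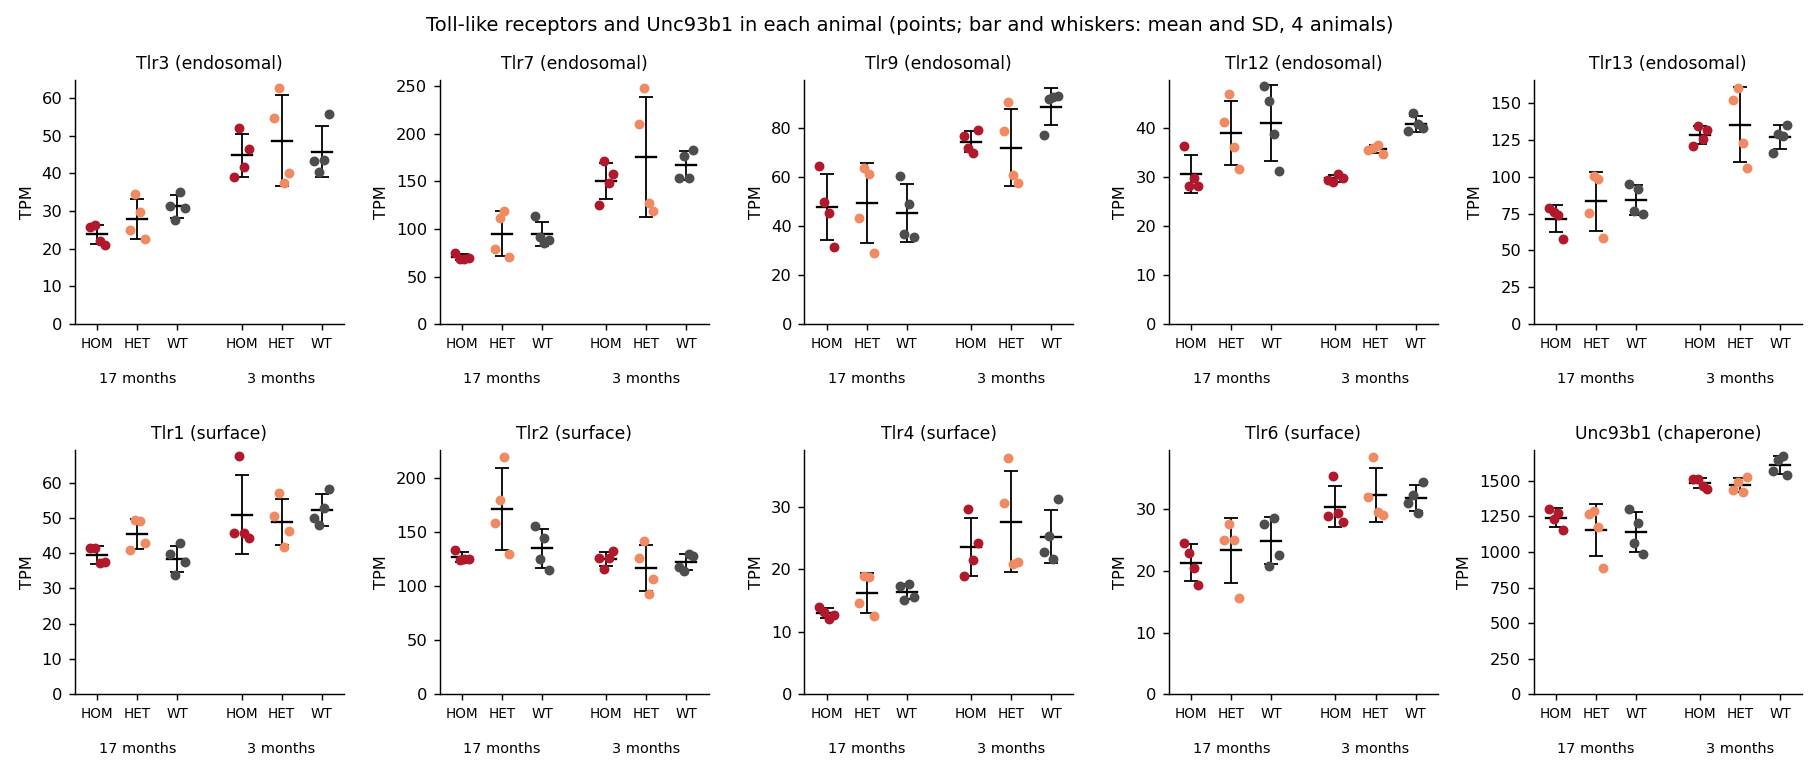
TPM of the 10 members (1 panel each, vertical axis from 0) in every animal, with HOM (red), HET (orange) and WT (grey) animals of 17 months left of those of 3 months. Points are animals, and bars and whiskers show the mean and SD of 4. Tlr12 forms 3 separate levels at 3 months (29.1 to 30.7 TPM in HOM, 34.8 to 36.6 TPM in HET and 39.5 to 43.1 TPM in WT animals), while at 17 months Tlr3, Tlr4 and Tlr7 lie lower in all HOM than in all WT animals.

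Tlr12, the profilin receptor, had 29.4, 29.1, 30.7 and 29.8 TPM in the 4 HOM animals of 3 months, 35.7, 36.0, 36.6 and 34.8 TPM in the HET animals and 39.5, 43.1, 40.9 and 40.0 TPM in the WT animals. The 3 genotypes did not overlap, and the HET animals lay between the others. Among the same animals the summed endothelial and mural markers were 45.6 to 64.4 TPM in HOM and 75.4 to 206 TPM in WT animals, with no overlap. Oligodendrocyte markers (349 to 621 TPM in HOM, 641 to 2378 TPM in HET animals) and astrocyte markers (90.1 to 116 TPM in HOM, 125 to 249.1 TPM in HET animals) lay apart between HOM and HET animals. So did neuron markers (5.14 to 7.22 TPM in HOM, 8.60 to 39.2 TPM in HET animals). Neuron markers also lay apart between HET and WT animals (3.96 to 5.45 TPM in WT animals). Their part in the Tlr12 values was not tested. The HOM mean was 72.8% of the WT mean (29.7 ± 0.680 TPM in HOM against 40.8 ± 1.59 TPM in WT animals, log2 difference -0.44), and the HET mean, 35.8 ± 0.743 TPM, was 87.6% of it. Its coefficient of variation within a group was 2.29% in HOM, 2.08% in HET and 3.89% in WT animals. In that comparison 1 of the 10 members, Tlr12, was called at an adjusted p under 0.05 by limma, against 0.0604% of all 11587 genes tested. Since this contrast chose the set, nothing is read from that count. All HOM animals lay below all WT animals in 2 members, Tlr12 and Unc93b1, and in 15.1% of all genes. In the RPKM table, made separately, Tlr12 stood at 14.8, 13.7, 15.1 and 14.2 RPKM in HOM, 17.3, 16.3, 19.2 and 17.1 RPKM in HET and 18.9, 20.2, 19.5 and 17.5 RPKM in WT animals. HOM values there were again below all others, but HET and WT values overlapped. The log2 difference between HOM and WT animals was -0.37 in that table and -0.35 with quantile normalization, and Tlr12 was not among the calls of either.

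The comparisons with HET animals at 3 months each reuse the HOM or the WT animals whose Tlr12 values chose the set, so Tlr12 is described there too, without p-values. It differed by -0.19 on the log2 scale between HET and WT animals (SE 0.050) and by -0.26 between HOM and HET animals (SE 0.050). With each library centred on its median the first difference was -0.07, and the second lay between -0.28 and -0.25 in all 8 settings. All HET animals lay below all WT animals in Tlr12 and Unc93b1, as in 9.99% of genes, and all HOM below all HET animals in Tlr12, as in 2.85% of genes. Nothing is read from these counts for Tlr12.

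At 17 months Tlr12 stood at 36.4, 28.3, 29.8 and 28.2 TPM in HOM, 41.3, 47.0, 36.2 and 31.7 TPM in HET and 48.7, 45.6, 38.8 and 31.3 TPM in WT animals. HOM animals were again the lowest on average, but HOM-7835 (36.4 TPM) overlapped the WT range. The HOM mean was 74.7% of the WT mean (30.7 ± 3.92 TPM in HOM against 41.1 ± 7.73 TPM in WT animals), with a wider spread than at 3 months. The log2 difference of -0.40 (SE 0.152) had an adjusted p of 0.181 (limma), and with any 1 of 12 animals left out it ran from -0.52 to -0.31.

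Several receptors had lower TPM in HOM than in WT animals at 17 months, and none passed the test in the TPM table. Limma called 0 of the 10 members between HOM and WT animals (0.712% of 11792 genes were called, 55 higher and 29 lower), and 4 of them, Tlr3, Tlr4, Tlr7 and Tlr12, had an unadjusted p under 0.05, as did 18.6% of all genes. Tlr7, the sensor of single-stranded RNA, had 74.9, 68.0, 68.3 and 69.5 TPM in HOM animals, against 113, 91.8, 84.8 and 88.3 TPM in WT animals. The groups did not overlap, and the HOM animals lay within a range of 7 TPM. The difference was -0.42 on the log2 scale (SE 0.154, adjusted p = 0.169, limma). By sex, the HOM males had 68.0 to 74.9 TPM and the WT male 84.8 TPM, the HOM female 69.5 TPM and the WT females 88.3 to 113 TPM. With 1 WT male and 1 HOM female nothing is read from this split. With a sex term the adjusted p was 0.372 (limma).

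Tlr3, the sensor of double-stranded RNA, had 25.7, 26.3, 22.1 and 21.05 TPM in HOM animals of 17 months, against 31.3, 27.7, 34.9 and 30.9 TPM in WT animals. These groups did not overlap either, and the difference was -0.38 (SE 0.133, adjusted p = 0.151). Tlr4, a surface receptor, had 13.9, 13.2, 12.1 and 12.7 TPM in HOM animals, against 17.3, 15.1, 17.6 and 15.6 TPM in WT animals. Every HOM animal was below every WT animal, with a difference of -0.32 (SE 0.128, adjusted p = 0.206). Over all genes, 4.05% lay lower in every HOM than in every WT animal of that age, against 3 of the 10 members.

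Tlr13, which binds bacterial ribosomal RNA, had 78.7, 76.1, 74.1 and 57.8 TPM in HOM and 94.8, 76.4, 91.4 and 74.6 TPM in WT animals of 17 months. The ranges overlapped, and the difference was -0.23 (SE 0.165, adjusted p = 0.499). Tlr9, the CpG DNA sensor, had a difference near 0, whose sign turned with median centring (-0.01) and with a sex term (-0.16). It stood at 64.4, 49.8, 45.4 and 31.6 TPM in HOM and 60.5, 36.6, 48.9 and 35.7 TPM in WT animals, a log2 difference of 0.06 (SE 0.263, adjusted p = 0.933) with the widest error of the 10 members. Among the surface receptors that sense lipopeptides, Tlr2 (127 ± 4.59 TPM in HOM, 135 ± 18.01 TPM in WT animals), Tlr1 (39.5 ± 2.43 TPM in HOM against 38.4 ± 3.74 TPM in WT animals) and Tlr6 (21.4 ± 2.98 TPM in HOM against 24.9 ± 3.81 TPM in WT animals) differed by -0.08, 0.04 and -0.21. None of the 3 passed the test, and the sign of Tlr1 turned with median centring (-0.03), with the sex term (-0.03) and with quantile normalization (-0.00386). Unc93b1 had 1306, 1236, 1272 and 1153 TPM in HOM and 1304, 1067, 1202 and 986 TPM in WT animals. These ranges overlapped (0.13, SE 0.123, adjusted p = 0.632), and the sign was positive in all 8 other settings (0.06 to 0.14).

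**Figure D2:**
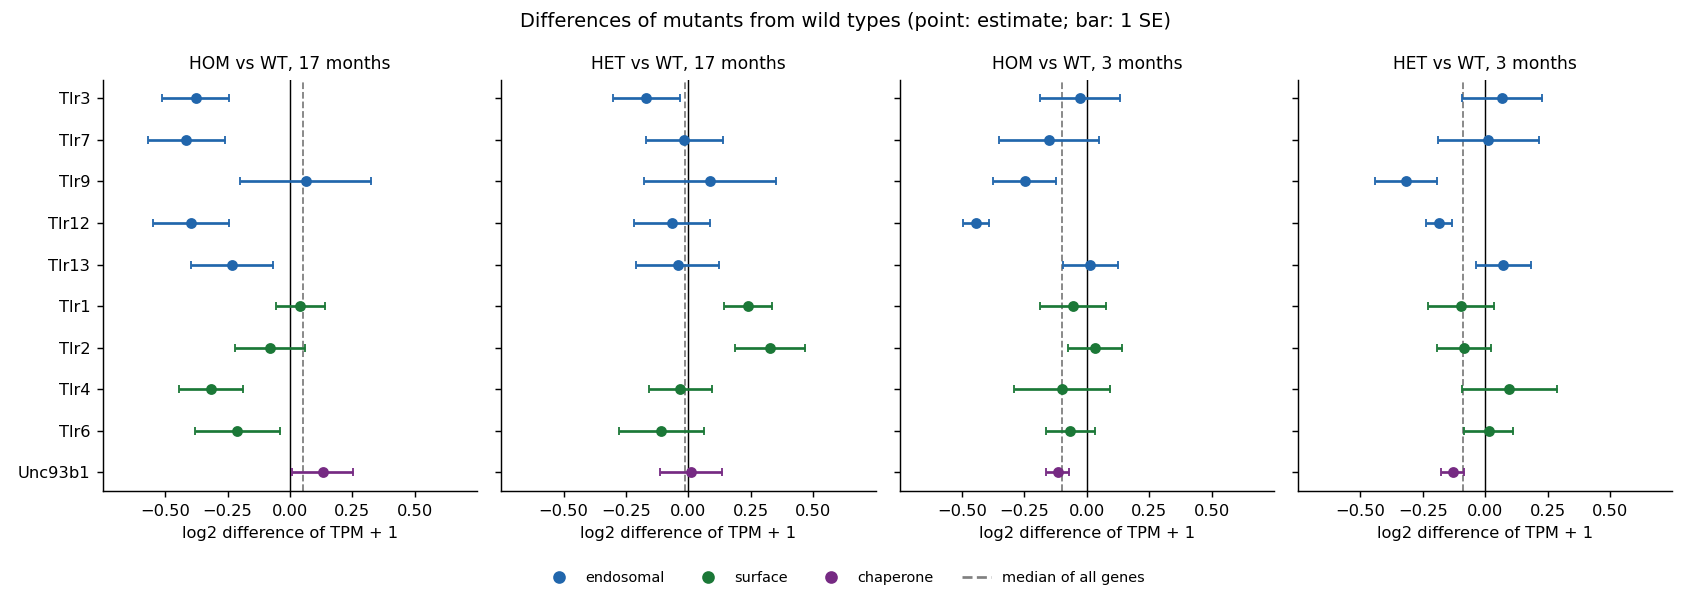
Log2 differences of TPM + 1 (horizontal axis) of the members, for HOM and for HET animals against WT animals at 17 and 3 months, with endosomal receptors in blue, surface receptors in green and Unc93b1 in purple. Points are limma estimates, bars 1 SE and the dashed line the median of all genes. At 17 months Tlr3 (-0.38), Tlr7 (-0.42), Tlr12 (-0.40) and Tlr4 (-0.32) lie farthest to the left in HOM against WT animals, and Tlr2 (0.33) and Tlr1 (0.24) farthest to the right in HET against WT animals.

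The 2 classes were set beside each other and beside all genes. In HOM against WT animals of 17 months, 4 of 5 endosomal receptors had a negative difference, with a median of -0.38, and 3 of 4 surface receptors did, with a median of -0.15. The median of all 11792 genes was 0.05, with 60% of them positive, and 8 of the 10 members lay below it. With median centring and with the sex term, all 5 endosomal and all 4 surface receptors were negative, and with quantile normalization 4 of 5 and 4 of 4. Between HOM and HET animals of that age the endosomal median was -0.21 and the surface median -0.24. The surface median was also the lower one in the RPKM table, with median centring and with quantile normalization. With the sex term it was the higher one (-0.36 endosomal, -0.34 surface). The summed TPM of the endosomal receptors was 244 ± 29.6 in HOM, 295 ± 68.8 in HET and 296 ± 37.9 in WT animals (SD, n = 4), and that of the surface receptors 200.5 ± 9.51 in HOM, 256 ± 48.0 in HET and 215 ± 25.3 in WT animals. The endosomal share of both sums was 54.8 ± 2.03% in HOM, 53.3 ± 2.23% in HET and 58.0 ± 1.35% in WT animals, with HOM values from 51.9 to 56.7% and WT values from 56.2 to 59.2%. At 3 months the share was 65.0 ± 0.822% in HOM, 67.2 ± 2.40% in HET and 66.9 ± 1.23% in WT animals. The share was lower at 17 than at 3 months in each genotype, a comparison across separate tables that was not tested.

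**Figure D3:**
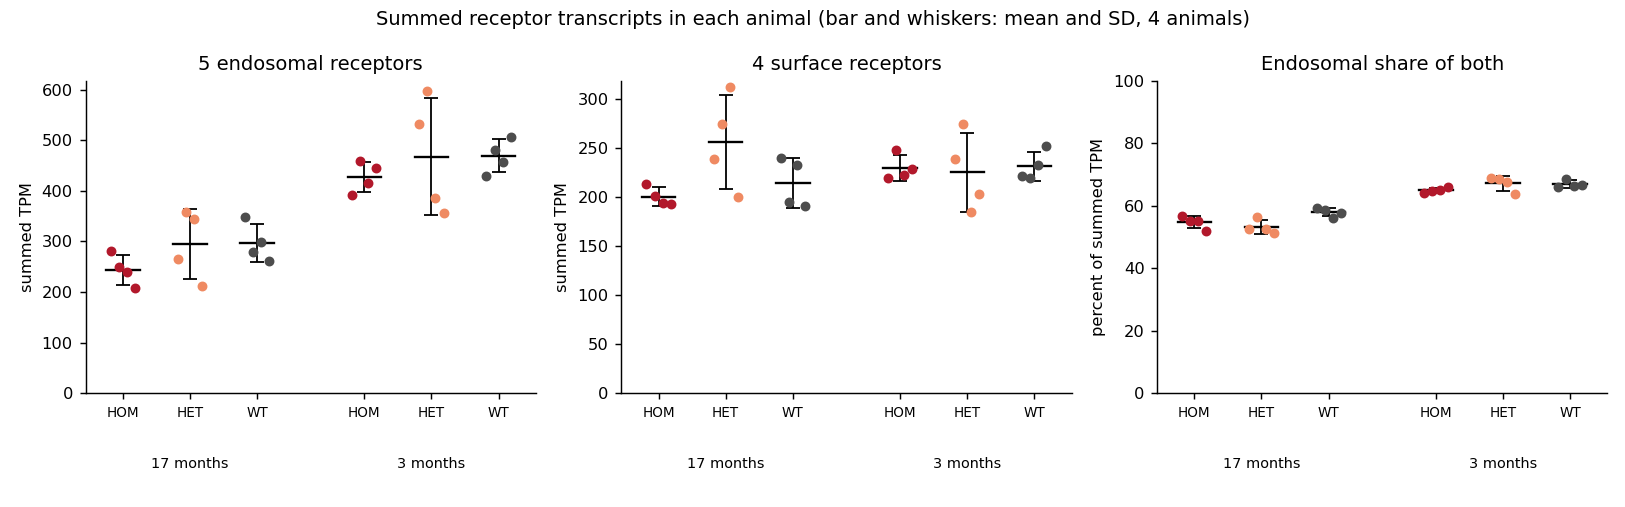
Summed TPM of the 5 endosomal and the 4 surface receptors, and the endosomal share of both in percent (vertical axes from 0), in every animal, by genotype and age. Points are animals, and bars and whiskers show mean and SD of 4. The share lies between 51.4 and 59.2% in all animals of 17 months and between 63.7 and 69.0% in all animals of 3 months.

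The calls at 17 months depended on the table and the scaling. In the RPKM table limma called 3 members lower in HOM than WT animals, where 8.34% of genes were called, 715 higher and 217 lower. These were Tlr3 (-0.38, adjusted p = 0.0365), Tlr4 (-0.28, adjusted p = 0.0442) and Tlr7 (-0.39, adjusted p = 0.0449), and Tlr12 had an adjusted p of 0.0579 (-0.37). Tlr7 stood there at 41.6, 39.1, 38.8 and 42.2 RPKM in HOM and 60.5, 52.8, 47.7 and 52.7 RPKM in WT animals, again with no overlap. With median centring 4 members were called, Tlr3, Tlr4, Tlr7 and Tlr12 (5.16% of genes, 204 higher and 405 lower), and with quantile normalization 3, Tlr3, Tlr4 and Tlr12 (5.37% of genes, 278 higher and 355 lower). Over the 8 other settings, apart from leaving out animals, the adjusted p ran from 0.0218 to 0.181 for Tlr3, 0.0227 to 0.298 for Tlr4, 0.0319 to 0.372 for Tlr7 and 0.0343 to 0.313 for Tlr12. The size moved less, from -0.49 to -0.38 for Tlr3, -0.39 to -0.28 for Tlr4, -0.49 to -0.37 for Tlr7 and -0.47 to -0.37 for Tlr12. With a sex term these 4 differences were all negative, and 0 members were called. Between the same groups the summed monocyte markers lay apart (higher in HOM), as did the oligodendrocyte markers (lower in HOM). So did 6 endothelial and mural markers (155 to 226 TPM in HOM, 128 to 143 TPM in WT animals), while the neutrophil markers overlapped. The summed microglia markers overlapped too, with a lower median in HOM (18379 TPM) than in WT animals (22219 TPM). Their part in the receptor values was not tested.

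**Figure D4:**
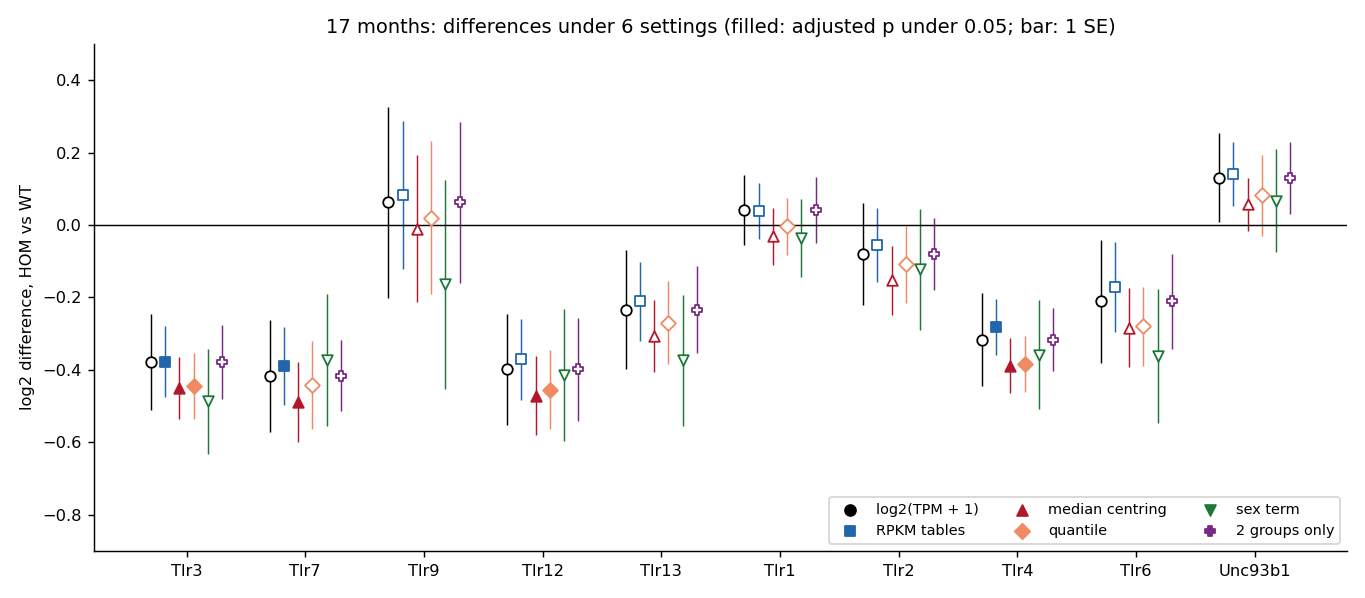
Log2 differences (vertical axis) of the members between HOM and WT animals at 17 months under 6 settings, shown by symbol and colour. Bars are 1 SE, and filled symbols have an adjusted p under 0.05. Filled symbols appear for Tlr3, Tlr4, Tlr7 and Tlr12 in some settings and for no member with log2(TPM + 1), the sex term or the 2 groups alone.

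At 17 months limma called 0 members between HET and WT animals (0.237% of genes), with Tlr1 and Tlr2 at an unadjusted p under 0.05, as were 9.24% of all genes. Tlr2, which pairs with Tlr1 or Tlr6, had 158, 179, 219 and 129 TPM in HET and 155, 125, 144 and 115 TPM in WT animals. Of the HET animals 3 lay above all WT animals and HET-7796 among them (0.33, SE 0.141, adjusted p = 0.479). Tlr1 had 40.9, 49.3, 49.0 and 42.8 TPM in HET and 39.7, 33.9, 42.7 and 37.3 TPM in WT animals, with a difference of 0.24 (SE 0.097, adjusted p = 0.439). In the RPKM table neither gene overlapped, but the share of all genes lying apart was counted only in the TPM table. There 1.29% of genes, and 0 members, lay higher in every HET than in every WT animal. Tlr2 ran from 88.2 to 124 RPKM in HET and 70.2 to 84.1 RPKM in WT animals (limma, adjusted p = 0.186). Tlr1 ran from 23.0 to 27.0 RPKM in HET and 18.3 to 22.4 RPKM in WT animals (limma, adjusted p = 0.216). Tlr7 (95.1 ± 23.98 TPM in HET, 94.5 ± 12.7 TPM in WT animals), Tlr12 (39.1 ± 6.61 TPM in HET against 41.1 ± 7.73 TPM in WT animals) and Tlr4 (16.2 ± 3.19 TPM in HET against 16.4 ± 1.20 TPM in WT animals) had nearly equal means. HET animals had the largest SD of the 3 genotypes in 9 of the 10 members, all but Tlr12. HET-7796 was the lowest of the 4 in 9 of the 10 members, and its TPM column had the smallest sum of all 24 animals, 78.9% of the full scale. It also had the lowest summed microglia markers (16626 TPM) and the highest summed neutrophil markers (11108 TPM) of the 24. HET-7791 had 10720 TPM of the neutrophil markers. The part of column sum and markers in these values was not tested.

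Between HOM and HET animals of 17 months, limma called 0 members as well (1.86% of genes), while all 9 receptors had negative differences. Those of Tlr2 (-0.41, SE 0.141, adjusted p = 0.217), Tlr7 (-0.40, SE 0.154, adjusted p = 0.281), Tlr12 (-0.33, SE 0.152, adjusted p = 0.382) and Tlr4 (-0.28, SE 0.128, adjusted p = 0.368) had an unadjusted p under 0.05, as did 13% of all genes. Unc93b1 differed by 0.12 (SE 0.123). Median centring called Tlr2, Tlr4 and Tlr7 (2.09% of genes) and quantile normalization Tlr4 (1.65% of genes). Of these animals 3 HOM and 0 HET were male. This comparison shares the HOM animals with the one against WT, so the 2 do not count as separate evidence.

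At 3 months the receptors other than Tlr12 showed little difference between HOM and WT animals. Tlr7 had 125, 171, 148 and 157 TPM in HOM and 154, 177, 153 and 183 TPM in WT animals (log2 difference -0.15), with overlap. Tlr3 (44.8 ± 5.70 TPM in HOM, 45.7 ± 6.77 TPM in WT animals), Tlr13 (128 ± 6.01 TPM in HOM against 127 ± 7.88 TPM in WT animals), Tlr2 (125 ± 6.55 TPM in HOM against 122 ± 7.70 TPM in WT animals), Tlr4 (23.5 ± 4.56 TPM in HOM against 25.2 ± 4.28 TPM in WT animals), Tlr6 (30.4 ± 3.35 TPM in HOM against 31.8 ± 2.13 TPM in WT animals) and Tlr1 (50.8 ± 11.2 TPM in HOM against 52.2 ± 4.45 TPM in WT animals) differed by between -0.10 and 0.03 on the log2 scale. With median centring Tlr1, Tlr3, Tlr4 and Tlr6 turned from negative to positive (0.01 to 0.09). Tlr9 stood at 76.7, 71.7, 69.9 and 79.1 TPM in HOM and 77.2, 91.9, 92.6 and 93.0 TPM in WT animals (-0.25), and WT-8322 lay among the HOM values.

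Unc93b1 had 1511, 1515, 1464 and 1444 TPM in HOM animals of 3 months, against 1569, 1649, 1678 and 1544 TPM in WT animals. The groups lay apart with a log2 difference of -0.12, near the median of all genes in the same comparison, -0.10. Only 24.8% of genes had a positive difference there, and centring on the median moved that median to 0.01. After centring, the difference of Unc93b1 was -0.0048 and that of Tlr12 -0.33.

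Between HET and WT animals of 3 months limma called 0 members (0.0432% of genes). Of the members other than Tlr12, Tlr9 and Unc93b1 had an unadjusted p under 0.05, as did 21.6% of all genes. All 4 HET animals and 1 of 4 WT animals were male. Without a sex term 2 of 5 endosomal and 2 of 4 surface receptors had negative differences, and with it 4 of 5 and 4 of 4 did. Unc93b1 had 1439.5, 1494, 1421 and 1525 TPM in HET animals, all below the WT values (-0.13, SE 0.047, adjusted p = 0.150, and -0.02 after median centring). Tlr9 had 78.9, 90.8, 61.0 and 57.4 TPM in HET animals, against 77.2, 91.9, 92.6 and 93.0 TPM in WT animals (-0.32, SE 0.125, adjusted p = 0.178). The HET animals split within their group. HET-8302 and HET-8303 had 209.8 and 247 TPM of Tlr7, HET-8304 and HET-8309 127 and 119 TPM, and WT animals lay between. The same 2 animals were the higher ones of their group in Tlr1, Tlr2, Tlr3, Tlr4, Tlr6, Tlr9 and Tlr13, whereas Tlr12 differed by less than 2 TPM among the 4. HET-8304 also had the highest summed oligodendrocyte (2378 TPM) and neuron (39.2 TPM) markers of that age, and the 11 immediate early genes, a list chosen after the data were seen, summed to 3638 TPM in it, 16814 TPM in HET-8309, 9176 TPM in HET-8302 and 9679 TPM in HET-8303. Their part in the split was not tested. Between HOM and HET animals of 3 months limma called 0 members (0.0259% of genes). Of the members other than Tlr12, none had an unadjusted p under 0.05, as 8.55% of all genes did.

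The genotype differences of both ages were set against each other in a fit over all 24 animals and 11436 genes. For HOM against WT animals this takes in the 3-month comparison that chose the set, so member values are given without p-values. Limma called 0 members there (17 months minus 3 months, 0.254% of genes called), 0 had an unadjusted p under 0.05, as 21.8% of genes did, and nothing is read from these counts. The median of all genes was 0.16, with 71.1% positive. Unc93b1 stood at 0.25 (SE 0.133), and at 0.07 with median centring. Tlr3 stood at -0.35 (SE 0.214) and Tlr7 at -0.26 (SE 0.267), and with median centring at -0.53 and -0.45. For HET against WT animals 0 members were called (0.691% of genes), and Tlr2 had an unadjusted p under 0.05, as did 14.4% of genes (0.41, SE 0.185, adjusted p = 0.308).

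Genes that act with the receptors were followed through a list of 71, of which 66 were tested at 17 months and 67 at 3 months. Limma called 0 of them in any comparison. Between HOM and WT animals 13 had an unadjusted p under 0.05 at 17 months and 12 at 3 months, and between HET and WT animals 6 and 16. As shares of the genes tested these were 19.7% at 17 months and 17.9% at 3 months between HOM and WT animals, against 18.6% and 19.7% of all genes, and 9.09% and 23.9% between HET and WT animals, against 9.24% and 21.6% of all genes. The list thus held about the share that all genes gave. Sigirr, Il12b, Ifnb1 and Lamp5 were too low to be tested at both ages and Ctsk at 17 months.

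By role, the 4 tested proteases that trim endosomal receptors were all negative, under each scaling too, in HOM against WT animals of 17 months (median -0.27). Ctss, a lysosomal cathepsin, stood at 8826 ± 869 TPM in HOM and 11455 ± 525 TPM in WT animals (SD, n = 4, log2 difference -0.38, SE 0.105, adjusted p = 0.0915), and Lgmn, asparagine endopeptidase, at 3179 ± 464 TPM in HOM against 3745 ± 381 TPM in WT animals. At 3 months the list of 5 proteases had a median of -0.01 (0.10 with median centring), and Ctss stood at 10052 ± 339 TPM in HOM and 9081 ± 405 TPM in WT animals. Of the chaperones and traffic factors 5 of 9 were negative at 17 months (median -0.10, and -0.17 with median centring), while with the sex term 5 of 9 were positive (median 0.08). Hsp90b1, the chaperone gp96 that folds most Toll-like receptors, had 469 ± 38.7 TPM in HOM and 569 ± 85.7 TPM in WT animals (-0.27, adjusted p = 0.273), and its cofactor Cnpy3 159.7 ± 12.4 TPM in HOM against 174 ± 18.2 TPM in WT animals. Of the co-receptors 3 were positive and 3 negative, and with median centring 2 and 4. Ly86, the partner of the receptor homologue Cd180, had 2065 ± 125 TPM in HOM and 2415 ± 76.6 TPM in WT animals (-0.23, adjusted p = 0.131), and Cd14, which hands lipopolysaccharide to Tlr4, 408 ± 6.61 TPM in HOM against 393 ± 57.9 TPM in WT animals.

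Downstream genes mostly had positive differences between HOM and WT animals at 17 months. The median was 0.30 for inhibitors (7 of 9 positive), 0.37 for cytokine and chemokine targets (6 of 8 positive) and 0.19 for transcription factors (7 of 8 positive), against a median of 0.05 and 60% positive for all genes. With median centring these medians were 0.23, 0.29 and 0.12. With the sex term 5 of 9 inhibitors (median 0.18), 6 of 8 targets (0.43) and 5 of 8 transcription factors (0.11) were positive. Positive medians were not particular to that comparison. In HET against WT animals of 17 months they were 0.14, 0.16 and 0.05, against -0.01 for all genes. At 3 months targets had medians of 0.19 in HOM and 0.12 in HET against WT animals. Inhibitors had 0.00286 and -0.10 there, and transcription factors -0.12 and -0.18. Nfkbia, which holds NF-kB in the cytoplasm, stood at 442 ± 44.1 TPM in HOM and 327 ± 56.8 TPM in WT animals (0.44, SE 0.144, adjusted p = 0.128). Tnfaip3, a deubiquitinase that ends the signal, had 76.2 ± 7.38 TPM in HOM against 53.7 ± 15.1 TPM in WT animals (0.53, adjusted p = 0.260). The chemokines Ccl3 and Ccl4 had 1331 ± 257 TPM in HOM against 1033 ± 104 TPM in WT animals (0.35, adjusted p = 0.275) and 1132 ± 148 TPM in HOM against 845 ± 93.8 TPM in WT animals (0.42, adjusted p = 0.167). Irf5, a factor downstream of Myd88, had 320.5 ± 20.3 TPM in HOM against 269.7 ± 29.9 TPM in WT animals (0.25, adjusted p = 0.206), and Irf8, which shapes microglia, 282 ± 25.01 TPM in HOM against 287 ± 29.6 TPM in WT animals. The immediate early genes summed to between 5775 and 9457 TPM in HOM and between 4022 and 6008 TPM in WT animals of 17 months. Their part was not tested.

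Adaptors and kinases lay near 0 at 17 months, with medians of 0.03 (4 of 6 positive) and 0.08 (12 of 16 positive), which became -0.04 and 0.00312 with median centring. With the sex term 5 of 6 adaptors were negative (median -0.13) and 9 of 16 kinases positive (0.02). Myd88, the shared adaptor, had 80.9 ± 6.32 TPM in HOM and 72.1 ± 8.996 TPM in WT animals, and Pik3ap1, which links receptors to phosphoinositide 3-kinase, 106 ± 20.4 TPM in HOM against 111 ± 20.5 TPM in WT animals. At 3 months all 6 adaptors were negative in HOM against WT (median -0.18) and in HET against WT animals (-0.21), and with median centring 5 of 6 (-0.06) and 6 of 6 (-0.10) were. The median of all genes was -0.10 in the first of these and -0.09 in the second. Myd88 stood at 87.6 ± 2.87 TPM in HOM, 88.6 ± 6.26 TPM in HET and 96.8 ± 4.04 TPM in WT animals. Tab2 and Irak2, a scaffold and a kinase of the pathway, had 126 ± 7.43 TPM in HOM against 140.1 ± 11.95 TPM in WT animals and 78.3 ± 6.13 TPM in HOM against 87.2 ± 8.11 TPM in WT animals at that age, with adjusted p of 0.456 and 0.334.

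**Figure D5:**
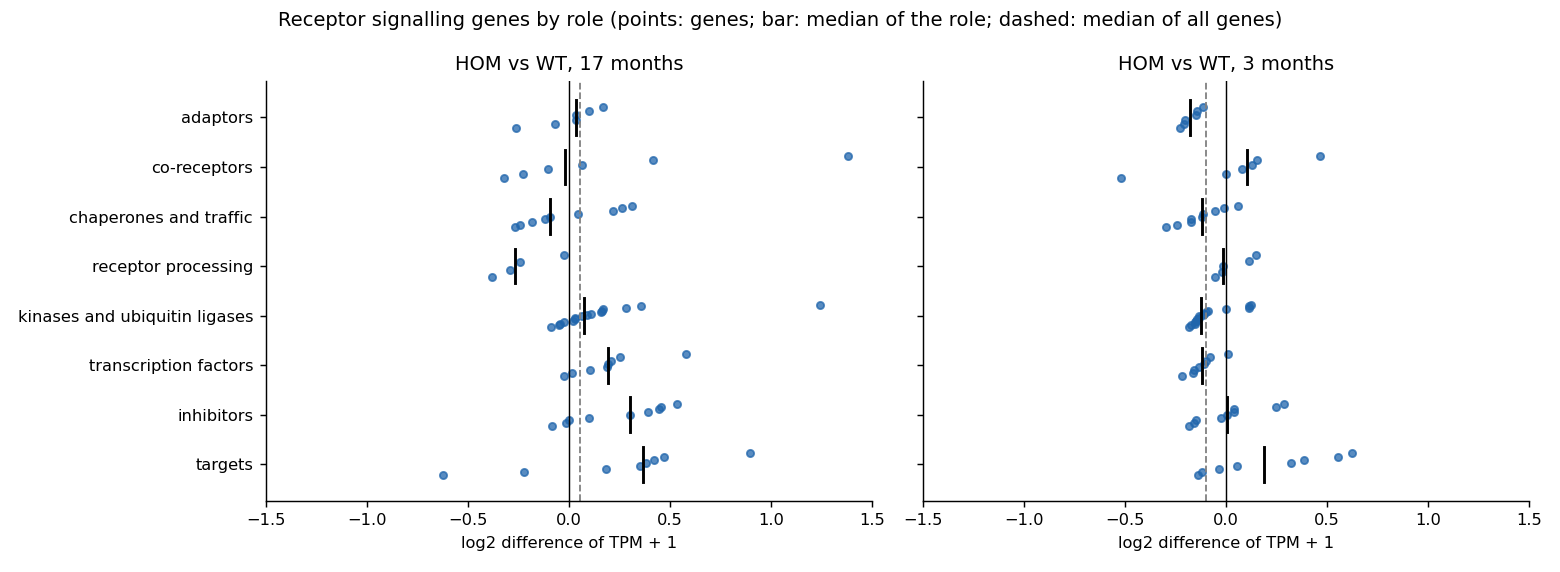
Log2 differences of TPM + 1 (horizontal axis) of the receptor signalling genes between HOM and WT animals at 17 months (left) and 3 months (right), by role. Points are genes, black bars the median of each role and the dashed line the median of all genes. At 17 months receptor processing genes have a median of -0.27, inhibitors 0.30 and targets 0.37, with 0 genes called at either age.

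Likeness over the 24 animals was measured as the root-mean-square difference of log2(TPM + 1) after the mean of each age was taken off, where smaller is more alike. Of the 45 pairs the closest were Tlr3 and Tlr4 (0.0962), Tlr13 and Tlr6 (0.110) and Tlr7 and Tlr4 (0.116), each an endosomal with a surface receptor. The least alike were Tlr7 and Unc93b1 (0.302), and Tlr9 stood in 5 of the 10 least alike pairs. Tlr9 also varied most by itself (0.308) and Unc93b1 least (0.130). These measures are descriptions over libraries that differ in depth (16700000 to 46400000 alignments). Among 8712 genes that averaged 5 TPM or more at both ages, the members included, the non-members most like each of 3 members were listed. Those most like Tlr12 were Olfml3 (0.121), Itgb5 (0.122) and Fcgr3 (0.128), set against 0.230 for Tlr12 itself. Those most like Tlr7 were Erap1 (0.122), Thoc2 (0.124) and Eea1 (0.124), against 0.289, and those most like Unc93b1 were Pi4k2a (0.0519), Rcc2 (0.0522) and Tgfb1 (0.0566), against 0.130.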

How the data were processed

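Polyadenylated RNA of CD11b-positive brain cells was made into stranded single-end libraries, per the labels' protocols. The authors deposited, for each age, a table of TPM for 20636 genes and a table of RPKM (18721 genes at 3 months and 19210 at 17 months). The submitters' processing notes name Salmon 0.8.2, TopHat2 2.1.1, DESeq2, Partek 7.17.0918 and the build mm10, without tying any of them to a table. No counts were used here, so values were tested on a log scale.

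Columns carry animal numbers, per the file headers, and the RPKM headers give the genotype of each number. Animals headed hemi at 17 months were taken as heterozygous. Nothing says whether animals are litter mates, and p-values set each difference against the spread between these animals. At 3 months the numbers ran from 8282 to 8287 in HOM, 8302 to 8309 in HET and 8322 to 8326 in WT animals. Anything shared within such a run cannot be told apart from genotype.

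At each age the test covered genes averaging 1 TPM or more across its 12 animals, and all 10 members passed at both ages (11587 genes at 3 months, 11792 at 17 months). Log2(TPM + 1) was fitted with limma 3.58.1 in R 4.3.3 (moderated variances with a trend, two-sided), all 3 genotypes in 1 fit per age, with Benjamini-Hochberg adjustment over all of them and a threshold of 0.05. Fold values understate low genes because of the pseudocount of 1. The fit was tested on simulated data. Alternatives were a pseudocount of 0.1, no filter or a minimum average of 5 TPM, the RPKM tables, median centring, quantile normalization, a sex term read from 4 Y-linked genes, the compared groups alone, and each animal left out in turn. Values were computed and drawn with Python 3.11.15, pandas 2.3.3 and matplotlib 3.10.9, and the exact permutation test was run with SciPy 1.17.1.

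The members, the gene lists and the rules for named genes were chosen with earlier results of these data known. All members were named, the other receptors by level, and of the signalling list the 2 genes of highest mean TPM in each role. Sequences are from RefSeq (GRCm38.p6) and positions from GENCODE M21.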

Additional observations from a re-analysis of the deposited data

Results flagged for a closer look

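In 60 groups of 4 animals (10 members, 6 groups), the gap of the highest or lowest animal to its nearest neighbour was set against the range of the group, against a limit that chance passes in about 1 of 20 groups. It was passed 3 times, about as often as chance gives.

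Tlr9 stood at 77.2 TPM in WT-8322 at 3 months, while the other 3 WT animals lay between 91.9 and 93.0 TPM. Tlr1 stood at 67.6 TPM in HOM-8285 at 3 months, while the other 3 HOM animals lay between 44.3 and 45.8 TPM. Tlr2 stood at 134 TPM in HOM-7835 at 17 months, while the other 3 HOM animals lay between 124 and 125 TPM.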

How the results depend on the processing

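Of the 10 members, the number called between HOM and WT animals at 3 months was 1 (0.0604% of genes called). It was 0 in the RPKM table (4 genes higher and 2 lower of 10781) and with quantile normalization (1 and 1 of 11587). Since this comparison chose the set, nothing is read from these counts. At 17 months the number of members was 0 (0.712% of genes). It was 3 in the RPKM table (8.34%), 4 with median centring (5.16%) and 3 with quantile normalization (5.37%). Between HOM and HET animals at 17 months it was 0 (1.86%), and 3 with median centring (2.09%) and 1 with quantile normalization (1.65%). The cause of these changes was not tested. Leaving out any 1 animal changed no count of called members. The other settings (pseudocount 0.1, no filter, a minimum average of 5 TPM, the sex term, the compared groups alone) changed none either. Of the 80 member differences, the sign changed in 2 in the RPKM tables, in 10 each with median centring, quantile normalization and the sex term, and in 68 of 1200 when an animal was left out, none of them a called difference. Targeted gene levels moved by less than 1 SD. No paired analysis was possible because the columns carry animal numbers, and nothing links these to the replicates named in the labels. Over all genes, the number called between HOM and WT animals at 17 months depended strongly on the setting. It was 84 (55 higher, 29 lower), against 12 higher and 7 lower with the pseudocount of 0.1, 7 and 4 with no filter, 3 and 2 with the sex term, and 932, 609 and 633 in the RPKM table, with median centring and with quantile normalization. It also depended on single animals. With 1 left out it ran from 0 higher and 1 lower (such as without HOM-7893) to 267 higher and 101 lower (without HET-7796).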
